A study of Arabidopsis thaliana with 12 samples.

Results

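Rosettes of Arabidopsis thaliana that lacked both the kinase CDK8 and most JAZ repressors (jazDcdk8-1) were compared with rosettes that lacked the JAZ repressors alone (jazD), across all genes. The 6 libraries of these genotypes, 3 each, were taken from the 12 of the series by genotype label, and the other 6, from cdk8-1 single mutants and wild-type Col-0, served as a second pair. Both jazDcdk8-1 and jazD carry mutations in 10 of the 13 JAZ genes, so JAZ loss is common to the groups compared, and the cdk8-1 allele is what jazDcdk8-1 adds. Each mutant genotype is a single line, each library pools about 20 plants, and the material was the shoot rosette without roots. Plants of all 4 genotypes shared a tray at 20 °C, with 16 h light and 8 h dark per day, and were harvested after 18 days on peat followed by 7 days in soil.

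CDK8 is the kinase of a detachable module of Mediator, the complex that connects DNA-bound transcription factors with RNA polymerase II. Its partners in the module are C-type cyclins, MED12 and MED13. JAZ proteins bind and hold back the transcription factors of the jasmonate response, so a plant without most of them runs wound and pathogen defenses at high levels in the absence of attack. Those defenses fall into a branch driven by MYC factors, which acts against chewing insects, and a branch driven with ethylene by ERF factors such as ORA59, which acts against necrotrophic fungi.

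CDK8 itself, on chromosome 5 at 25463362 to 25465922 of TAIR10.1, checked the labels. It had 2.73, 3.3 and 3.29 CPM, counts scaled to 1000000 per library, in the jazDcdk8-1 libraries, against 21.1, 20.1 and 20.1 CPM in the jazD libraries. The groups were far apart, and the level fell 6.53-fold (log2 fold change -2.71 ± 0.10 SE, adjusted p = 6.24e-15, edgeR quasi-likelihood test, as for every adjusted p here). The cdk8-1 and Col-0 libraries averaged 2.56 ± 0.23 and 18.8 ± 1.5 CPM (SD, n = 3 each). Of the module's other genes, MED13 had 42.6, 44.5 and 47.2 CPM in jazDcdk8-1 and 33.4, 39.8 and 41.8 CPM in jazD, and MED12 had 61.5, 63.5 and 66.5 CPM in jazDcdk8-1 and 53.2, 57.3 and 59.3 CPM in jazD. Both were called higher by small amounts (0.23 ± 0.08, adjusted p = 0.0226, and 0.17 ± 0.06, adjusted p = 0.0237, on the log2 scale), with groups that did not overlap, and both calls were lost when jazD replicate 1, jazDcdk8-1 replicate 2 or jazDcdk8-1 replicate 3 was left out (adjusted p of 0.0515 to 0.194 for MED13 and 0.0539 to 0.152 for MED12). The C-type cyclins CYCC1;1 and CYCC1;2 were not called (adjusted p = 0.575 and 0.701), nor was any of 10 genes for core Mediator subunits.

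The proximal promoters of 4 defense genes that recur below are shown because they differ in the elements they hold although the genes changed in the same direction. PDF1.2A and PDF1.3 encode plant defensins, small antifungal peptides, ACT an acyltransferase that builds antifungal agmatine amides, and ORA59 the ERF-type regulator of this branch. Each sequence is the 250 bases ahead of the annotated start, from the RefSeq TAIR10.1 genome, and capitals mark matches on either strand to the GCC-box bound by ERF proteins (GCCGCC), the G-box bound by MYC and other bHLH proteins (CACGTG) or the W-box bound by WRKY proteins (TTGACC or TTGACT). The windows are chr5:17907639-17907888 on the minus strand, chr2:11087030-11087279, chr5:24608355-24608604 and chr1:1882657-1882906 on the plus strand.
PDF1.2A: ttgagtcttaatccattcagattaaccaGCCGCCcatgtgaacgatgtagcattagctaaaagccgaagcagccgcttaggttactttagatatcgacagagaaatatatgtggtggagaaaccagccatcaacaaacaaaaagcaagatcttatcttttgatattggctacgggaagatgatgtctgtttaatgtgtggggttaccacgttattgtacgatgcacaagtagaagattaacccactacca
PDF1.3: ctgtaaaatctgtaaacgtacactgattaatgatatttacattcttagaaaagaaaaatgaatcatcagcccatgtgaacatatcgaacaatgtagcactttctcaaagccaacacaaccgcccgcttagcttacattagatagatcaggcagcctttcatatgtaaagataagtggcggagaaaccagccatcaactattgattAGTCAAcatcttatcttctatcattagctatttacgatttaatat
ACT: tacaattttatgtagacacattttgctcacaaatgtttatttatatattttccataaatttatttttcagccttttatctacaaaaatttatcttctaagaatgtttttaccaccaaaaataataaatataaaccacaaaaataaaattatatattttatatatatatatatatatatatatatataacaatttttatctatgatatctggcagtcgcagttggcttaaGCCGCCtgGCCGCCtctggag
ORA59: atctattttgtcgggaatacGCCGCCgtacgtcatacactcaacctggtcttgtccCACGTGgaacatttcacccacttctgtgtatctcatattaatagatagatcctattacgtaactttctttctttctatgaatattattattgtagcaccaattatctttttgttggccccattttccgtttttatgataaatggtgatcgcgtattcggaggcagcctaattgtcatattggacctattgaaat
PDF1.2A holds a single GCC-box that begins 222 bases before the start, whereas PDF1.3 holds none and instead has a W-box 45 bases before it. ACT has a pair of GCC-boxes at 21 and 13 bases before the start. ORA59 has a GCC-box at 230 bases and a G-box at 194 bases before the start. The same 250 bases of PR4, VSP2 and DTX18, which also fell, held none of the marked elements.

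The change on loss of CDK8 covered much of the expressed genome but was mostly small. Of 19059 genes tested, 35.8% were called at an adjusted p below 0.05, with 3213 higher (16.9%) and 3612 lower (19%) in jazDcdk8-1 than in jazD. Changes of at least 2-fold were mostly losses, with 298 genes higher (1.56%) and 850 lower (4.46%), and so were those of at least 4-fold, with 62 higher (0.325%) and 266 lower (1.4%). These shares over all genes tested are the background for the counts of each gene list and family below. Among the 266 genes, the median level was 0.557 CPM in jazDcdk8-1, 3.64 CPM in jazD and 1.14 CPM in Col-0, so many of them were scarce transcripts. Only 109 of them reached 5 CPM in jazD. The libraries of jazDcdk8-1 and jazD did not overlap in 9124 of all genes tested (47.9%). Genes named from lists and families had to meet this condition, so their lack of overlap was fixed by the choice and adds no support.

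The direction of the small changes depended on the scaling of the libraries. Higher genes made up 47.1% of the calls with TMM scaling, 63.5% with scaling to total counts and 75.7% with limma on log2(TPM + 1). The median over all genes tested was 1e-04 with TMM, 0.07 with total counts and 0.13 on the TPM scale, in log2 units. The 13 listed genes of the ERF branch summed to 972, 898 and 828 TPM in jazDcdk8-1 and to 36270, 40160 and 37440 TPM in jazD. Their part in the shifts with scaling was not tested. Gene groups whose balance turns with the scaling are named as such below. Within-genotype correlations of log2 CPM were 0.99 to 0.9925, against 0.9599 to 0.97 between the genotypes, and total counts in the 6 libraries were 17583467 to 21030374.

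Several libraries stood apart in gene groups that come up below. In jazD replicate 2 the 18 listed genes of salicylate and pipecolate defense summed to 636 TPM, against 363 and 375 TPM in the other jazD libraries, and in jazDcdk8-1 replicate 3 they summed to 239 TPM, against 180 and 154 TPM in its sister libraries. In cdk8-1 replicate 3 the ERF branch summed to 247 TPM, against 50.3 and 47.9 TPM in the other cdk8-1 libraries and 109 to 173 TPM in Col-0. Markers of other organs were low, but their sums did not overlap between jazDcdk8-1 and jazD: the summed TPM of 10 root markers was 20.5 to 21.0 in jazDcdk8-1 and 15.1 in jazD, with IRT1, RHD6, PLT1 and EXPA7 at 0 in all 6 libraries. Flower markers summed to 0.99 to 1.76 TPM in jazDcdk8-1 and 0.70 to 0.83 TPM in jazD with AP1 at 0, and seed markers to 0 to 0.13 TPM in jazDcdk8-1 and 0.33 to 0.52 TPM in jazD with EM1 and LEC1 at 0. The 2 root markers that passed the filter on low counts, SHR (0.55 ± 0.12, adjusted p = 0.000845) and SCR (0.26 ± 0.06, adjusted p = 0.00228), were called higher in jazDcdk8-1, and so was the 1 flower marker that passed, AG (1.34 ± 0.46, adjusted p = 0.0276). The 5 rosette markers summed to 65020 to 67650 TPM in jazDcdk8-1 and 58600 to 62850 TPM in jazD. Their part in the results was not tested. In whole rosettes, fewer cells of a type and less RNA per cell cannot be told apart.

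The antifungal ERF branch lost most of its transcripts. All 11 tested genes of this list were lower in jazDcdk8-1, 10 of them at least 2-fold, against 19% called lower over all genes, and the list's median log2 fold change was -3.70. PDF1.3 had 34.3, 13.4 and 17.7 CPM in jazDcdk8-1, against 2686, 2994 and 2720 CPM in jazD. PDF1.2A had 50.6, 62.3 and 41.6 CPM in jazDcdk8-1, against 2092, 2238 and 2208 CPM in jazD. The groups did not overlap in either gene, as the naming rule required (log2 fold change -7.03 ± 0.36, adjusted p = 2.21e-12, for PDF1.3, and -5.40 ± 0.29, adjusted p = 3.48e-12, for PDF1.2A). The PDF1 genes are near-identical copies, so the split of reads among them is uncertain, but PDF1.2B and PDF1.2C fell as well (-6.81 and -6.83). PDF1.2A and PDF1.2C lie within a stretch of chromosome 5 described below, and PDF1.3 and PDF1.2B lie on chromosome 2.

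Enzymes that attack fungal cell walls changed on the same scale. The chitinase gene AT2G43590 had 13.9, 7.13 and 10.4 CPM in jazDcdk8-1, against 662, 752 and 626 CPM in jazD (-6.04 ± 0.17, adjusted p = 4.82e-17). The glucan-hydrolase gene AT4G16260 had 11, 6.46 and 7.64 CPM in jazDcdk8-1, against 575, 633 and 560 CPM in jazD (-6.16 ± 0.16, adjusted p = 2.03e-17). No library of one genotype came near the other for either gene. PR4, which encodes a hevein-like chitin-binding protein, fell less in proportion, with 157, 172 and 166 CPM in jazDcdk8-1 and 1755, 1823 and 1660 CPM in jazD (-3.41 ± 0.13, adjusted p = 8.54e-15). It was still above Col-0, at 36.7 ± 7.1 CPM (SD, n = 3). The lectin gene AT3G15356 had 82.9, 73.6 and 64.7 CPM in jazDcdk8-1 and 1584, 1743 and 1548 CPM in jazD (-4.46 ± 0.13, adjusted p = 1.15e-16).

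The regulator ORA59 fell by less than the defensins it is known to drive. ORA59 had 13.9, 13.8 and 14.5 CPM in jazDcdk8-1, against 47.9, 56.8 and 53.5 CPM in jazD (-1.90 ± 0.08, adjusted p = 1.3e-13). It stayed well above the 1.09 ± 0.26 CPM of cdk8-1 and the 1.12 ± 0.36 CPM of Col-0 (SD, n = 3 each); it was named after its values were seen. Set against Col-0, the median of the ERF branch was 2.17 in jazDcdk8-1 and 5.57 in jazD on the log2 scale, so part of the increase that accompanies JAZ loss was still present without CDK8.

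The agmatine-amide pathway showed a split between its first step and its last. ADC2, an arginine decarboxylase that makes agmatine, had 174, 171 and 173 CPM in jazDcdk8-1 and 241, 253 and 245 CPM in jazD, a decrease of 0.51 ± 0.04 on the log2 scale (adjusted p = 5.46e-09). ACT, the transferase that joins agmatine to a phenolic acid, had 8.73, 4.64 and 5.46 CPM in jazDcdk8-1 and 406, 451 and 410 CPM in jazD (-6.09 ± 0.20, adjusted p = 1.36e-15). DTX18, the transporter that exports the product, had 7.68, 8.99 and 8.62 CPM in jazDcdk8-1 and 236, 256 and 240 CPM in jazD (-4.85 ± 0.12, adjusted p = 8.12e-18). In all 3 genes the groups were apart, as the naming rule required. Of the 4 listed genes of the pathway 3 were called lower, against 19% of all tested genes.

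**Figure D1:**
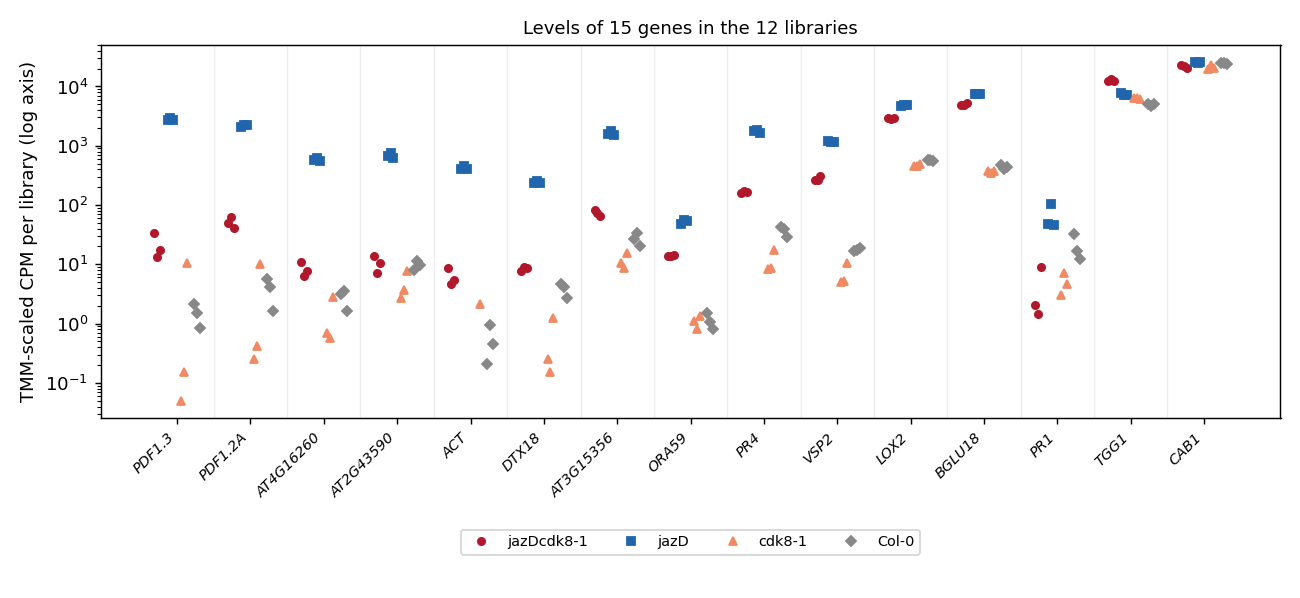
TMM-scaled CPM of 15 genes on a log axis, with 1 point per library in jazDcdk8-1, jazD, cdk8-1 and Col-0; values of 0, which ACT has in some cdk8-1 libraries, are not drawn. The jazD libraries stand above all others in the defensin, chitinase, ACT and DTX18 columns, the jazDcdk8-1 libraries lie between jazD and Col-0 for ORA59, PR4 and VSP2, and TGG1 is highest in jazDcdk8-1.

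The MYC branch was lower too. All 14 tested genes were lower, 10 of them at least 2-fold, with a median of -2.02, and the list's median against Col-0 was 1.23 in jazDcdk8-1 and 3.12 in jazD. ANAC055, a NAC factor downstream of MYC2, had 0.389, 0.383 and 0.417 CPM in jazDcdk8-1 and 6.32, 8.06 and 7.70 CPM in jazD (-4.19 ± 0.23, adjusted p = 5.93e-12). NATA1, an acetyltransferase acting on ornithine, had 11, 9.14 and 12.1 CPM in jazDcdk8-1 and 252, 254 and 248 CPM in jazD (-4.55 ± 0.14, adjusted p = 4.16e-16). The groups did not overlap in either, as the naming rule required. VSP2, an anti-insect acid phosphatase chosen after its values were seen, kept about 280 ± 28 CPM in jazDcdk8-1 against 1169 ± 28 CPM in jazD (SD, n = 3 each; -2.06 ± 0.09, adjusted p = 2.76e-13) and 17.7 ± 1.1 CPM in Col-0.

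Upstream of both branches, MYC2, MYC4 and TPL changed by less than 2-fold. MYC2 had 99.1, 104 and 114 CPM in jazDcdk8-1 and 130, 131 and 130 CPM in jazD (-0.30 ± 0.06, adjusted p = 0.000652), against 39.8 CPM on average in Col-0. MYC4 went the other way, with 29.6, 31.2 and 29.4 CPM in jazDcdk8-1 and 21.4, 21.7 and 21.9 CPM in jazD (0.47 ± 0.07, adjusted p = 7.15e-06). The corepressor gene TPL was also higher (0.30 ± 0.05, adjusted p = 0.000102). Of 10 genes of jasmonate receptors, factors and corepressors, 3 were higher and 2 lower with TMM scaling, and 6 higher and 0 lower on the TPM scale. The lower ones were MYC2 and NINJA, and NINJA (-0.13 ± 0.05, adjusted p = 0.045) lost its call without any library but jazD replicate 1. MYC2 was not called on the TPM scale. MYC5, a relative of MYC2 named after its values were seen, was scarce and the 1 gene of the list past 2-fold: it had 0.612, 0.765 and 0.556 CPM in jazDcdk8-1 and 0.109, 0 and 0.118 CPM in jazD (3.05 ± 0.58, adjusted p = 0.000294), and it lies inside the stretch of chromosome 5 described below. Among the genes that make and remove jasmonate, 11 of 13 for synthesis and 8 of 8 for breakdown were lower, with LOX4 (-1.97) and JOX3 (-3.61) the most changed named in each.

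Genes of ER bodies, compartments of the Brassicaceae that store β-glucosidases, were lower in jazDcdk8-1 but stayed well above Col-0. Of 11 tested genes 10 were lower and 1 higher, with a median of -0.59, whereas the list's median against Col-0 was 2.68 in jazDcdk8-1 and 3.41 in jazD. BGLU18, a glucosidase of these bodies, had 4855, 4789 and 5303 CPM in jazDcdk8-1 and 7415, 7550 and 7578 CPM in jazD (-0.59 ± 0.05, adjusted p = 1.54e-08). These levels were above the 438 ± 27 CPM of Col-0 (SD, n = 3) in both. NAI2, which forms the bodies, fell by 1.15 ± 0.06 (adjusted p = 6.58e-13), and the lectin gene PBP1 by 1.41 ± 0.05 (adjusted p = 5.49e-15). JAL22, another lectin gene, was the one that rose (0.76 ± 0.08, adjusted p = 2.23e-07). JR1, a lectin gene listed with the MYC branch and not among these 11, fell by 2.04 ± 0.06 (adjusted p = 3.54e-17).

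**Figure D2:**
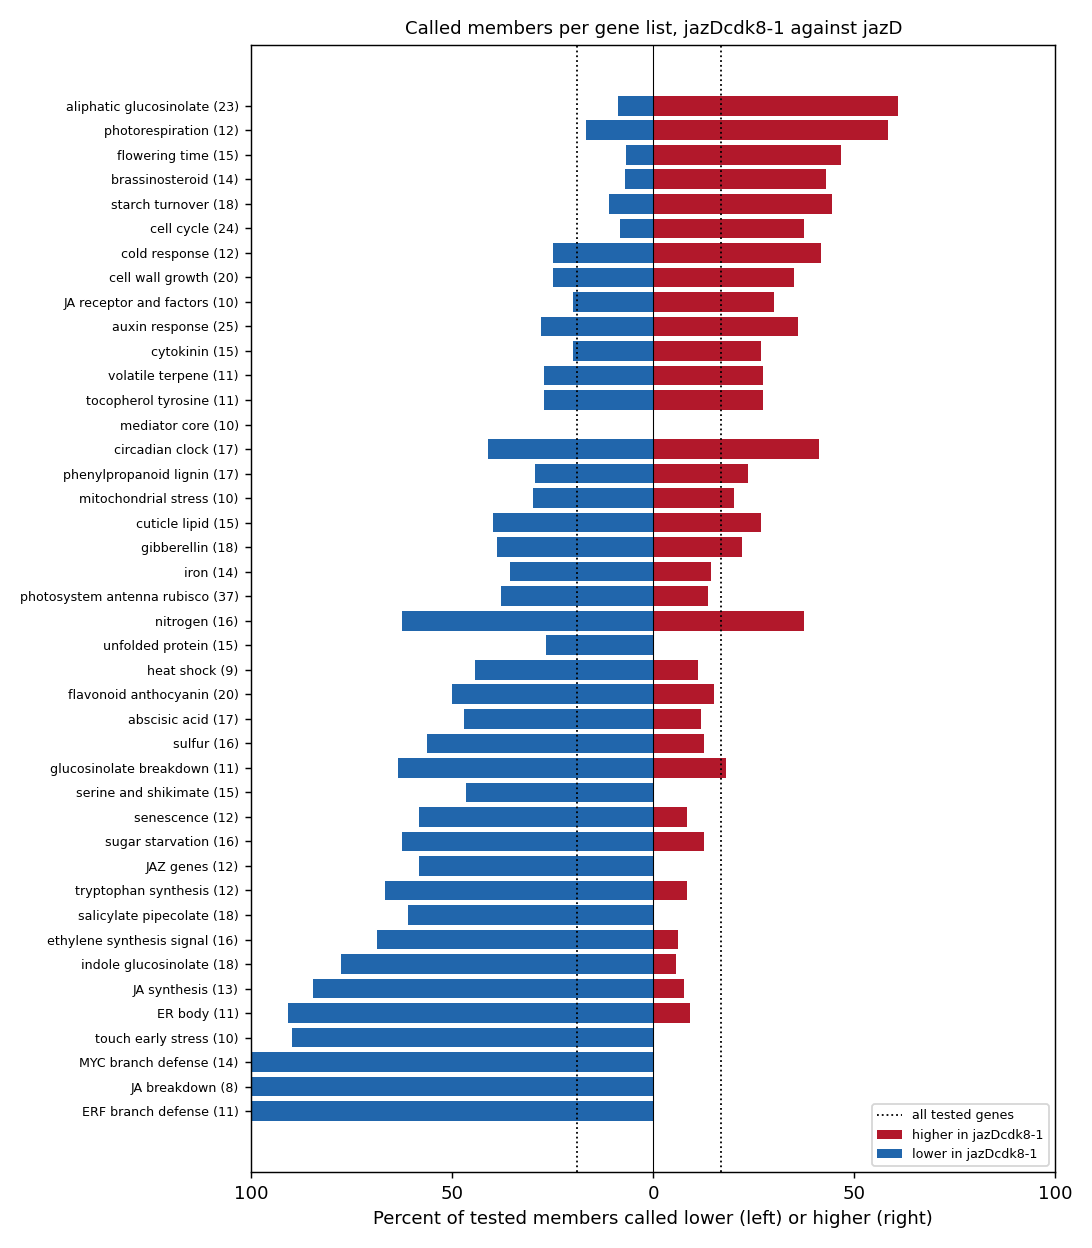
Percent of the tested members of each gene list that were called lower (left bars) or higher (right bars) in jazDcdk8-1 than in jazD, for lists with at least 8 tested genes, whose number is in brackets; dotted lines give 19% lower and 16.9% higher over all genes. All tested members were lower in the ERF branch, MYC branch and jasmonate breakdown lists, while aliphatic glucosinolate genes had the most members higher over lower.

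Among transcription factors, the stress-responsive families lost and the bHLH family gained. In the AP2/ERF family, which includes the ethylene response factors, 27 of 55 tested genes were lower and 3 higher, with 12 at least 2-fold lower. That is 49.1% lower and 5.45% higher, against 19% and 16.9% of all tested genes. ERF4, a repressor in this family, had 15.7, 17 and 15.2 CPM in jazDcdk8-1 and 43.0, 43.5 and 40.8 CPM in jazD (-1.41 ± 0.07, adjusted p = 5.6e-13). ERF104 and ERF6, regulators of early pathogen responses, fell by 1.60 ± 0.16 and 1.58 ± 0.18 (adjusted p = 1.04e-07 and 3.23e-07). In the WRKY family, known for pathogen signaling, 20 of 50 were lower (40%) and 5 higher (10%), with 11 at least 2-fold lower and none at least 2-fold higher. WRKY33, a driver of camalexin synthesis, had 17.41, 15.6 and 17.2 CPM in jazDcdk8-1 and 49.4, 62.4 and 43.5 CPM in jazD (-1.63 ± 0.12, adjusted p = 3.53e-10). The 5 higher WRKY genes came down to 2 or 3 when jazD replicate 1 or 3 or jazDcdk8-1 replicate 1 or 3 was left out. Both families kept more members lower than higher under all 3 scalings.

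The bHLH family ran in the opposite direction, with 25 of 78 tested genes higher and 13 lower, and 33 higher and 6 lower on the TPM scale. Without jazDcdk8-1 replicate 2, 7 were lower. UNE10, a relative of the phytochrome-interacting factors, had 24.2, 24.8 and 22.8 CPM in jazDcdk8-1 and 13.0, 12.9 and 12.3 CPM in jazD (0.91 ± 0.09, adjusted p = 4.27e-08). The small growth-promoting protein gene PRE1 had 14.5, 18.18 and 14.5 CPM in jazDcdk8-1, close to the 16.6 CPM of Col-0, and 5.99, 4.08 and 5.51 CPM in jazD (1.61 ± 0.13, adjusted p = 1.98e-09). For the NAC family 15 of 65 were lower and 4 higher with TMM, but 14 each way on the TPM scale, and for the MYB family 12 of 58 were lower and 8 higher with TMM, but 8 lower and 13 higher on the TPM scale. Over all tested genes 19% were lower and 16.9% higher with TMM, so the MYB shares of 20.7% lower and 13.8% higher lay near the background. NAC102 (-1.33 ± 0.10, adjusted p = 1.5e-09) and ATAF1 (-1.15 ± 0.14, adjusted p = 1.09e-06), both stress-responsive NAC factors, were lower. MYB88, which acts in stomatal development, had 28.8, 31.5 and 27.3 CPM in jazDcdk8-1 and 9.86, 9.24 and 9.48 CPM in jazD (1.62 ± 0.08, adjusted p = 3.67e-13).

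Enzyme families of specialized and detoxifying metabolism had more members lower than higher with TMM. Of 136 tested cytochrome P450 genes, 50 were lower and 25 higher with TMM (36 lower and 38 higher on the TPM scale), and 25 were at least 2-fold lower against 2 at least 2-fold higher. The share lower was 36.8%, against 19% of all tested genes, and the share higher 18.4%, near the 16.9% of all tested genes; 4.46% of all tested genes were at least 2-fold lower. CYP81F4, which modifies indole glucosinolates, had 10.9, 10.9 and 12.9 CPM in jazDcdk8-1 and 109, 116 and 111 CPM in jazD (-3.27 ± 0.09, adjusted p = 3.14e-17). CYP72A14 had 0.723, 1.05 and 0.880 CPM in jazDcdk8-1 and 12.9, 12.7 and 12.0 CPM in jazD (-3.80 ± 0.20, adjusted p = 3.31e-12). In neither gene did the groups approach each other. The 89 glycosyltransferase genes were matched by annotation and take in UGT genes and others such as GBSS1 and DGD1. Of these, 29 were lower and 16 higher with TMM, but 22 lower and 25 higher on the TPM scale. With TMM that is 32.6% lower, above the background of 19%, and 18% higher, near the background of 16.9%. UGT71C3 had 1.5, 1.24 and 1.90 CPM in jazDcdk8-1 and 31.9, 36.2 and 33.6 CPM in jazD (-4.44 ± 0.12, adjusted p = 3.47e-17).

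Glutathione transferases, which conjugate reactive compounds, had 15 of 35 tested genes lower and 8 higher with TMM, with 11 at least 2-fold lower. That is 42.9% lower and 22.9% higher, against 19% and 16.9% of all tested genes. On the TPM scale 14 were lower and 13 higher, so the balance was near even there. GSTF10 had 237, 238 and 230 CPM in jazDcdk8-1 and 858, 906 and 879 CPM in jazD, a tight difference (-1.91 ± 0.04, adjusted p = 1.09e-18). GSTF6 and GSTF7, pathogen-responsive members with similar sequences, fell by 1.61 ± 0.12 and 1.77 ± 0.15 (adjusted p = 6.35e-10 and 7.98e-09) and were highest in jazD replicate 2, at 386 and 256 CPM. Class III peroxidases, which act in the cell wall, had 11 of 32 lower (34.4%) and 2 higher (6.25%) with TMM, and 10 lower and 8 higher on the TPM scale. PRXCA, which contributes to the oxidative burst, had 27.9, 28.7 and 24.6 CPM in jazDcdk8-1 and 145, 162 and 144 CPM in jazD (-2.48 ± 0.07, adjusted p = 1.05e-16). Genes annotated as pectin methylesterases, which modify wall pectin, or as inhibitors of these enzymes were counted together and not told apart. Of 38, 15 were lower and 2 higher (1 without jazD replicate 1 or jazDcdk8-1 replicate 1). The most changed named, AT5G62360, had 20.4, 21.4 and 20.8 CPM in jazDcdk8-1 and 137, 131 and 135 CPM in jazD (-2.69 ± 0.08, adjusted p = 1.15e-16).

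**Figure D3:**
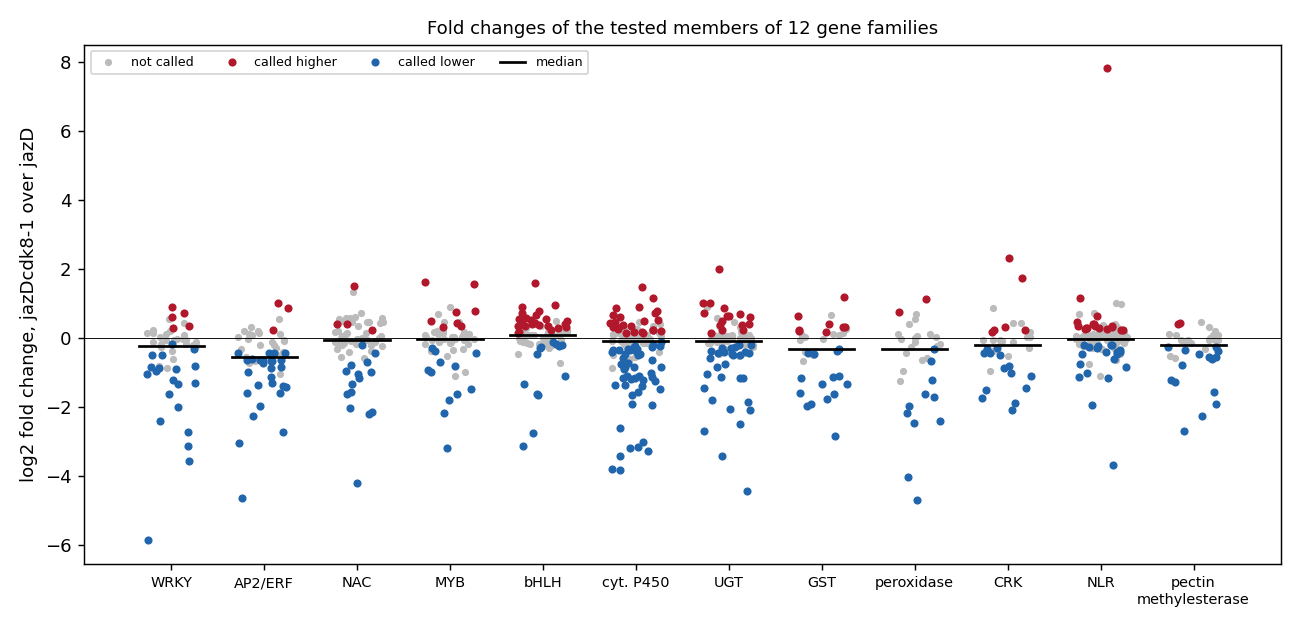
Log2 fold change of jazDcdk8-1 over jazD with TMM scaling for every tested member of 12 gene families, with called members in color, other members in gray and the family median as a bar. Called WRKY, AP2/ERF, glutathione transferase, peroxidase and pectin methylesterase or inhibitor genes lie mostly below 0 and called bHLH genes mostly above it. The UGT column also holds other glycosyltransferases.

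Salicylate and camalexin defense was lower in jazDcdk8-1, with sizes that leaned on single libraries. Of 18 genes of salicylate and pipecolate defense 11 were lower and none higher, and 9 lower and 1 higher without jazD replicate 2. PR1, a marker of the salicylate response, had 2.06, 1.44 and 9.17 CPM in jazDcdk8-1 and 47.5, 106 and 45.5 CPM in jazD (-3.94 ± 0.43, adjusted p = 2.91e-07). The groups were apart, but the log2 fold change was -5.27 without jazDcdk8-1 replicate 3. All 6 tested camalexin genes were lower, with a median of -2.49. PAD3, the last enzyme of camalexin synthesis, had 1.33, 0.670 and 2.83 CPM in jazDcdk8-1 and 15.6, 37.2 and 15.9 CPM in jazD (-3.82 ± 0.34, adjusted p = 1.58e-08, and -4.55 without jazDcdk8-1 replicate 3). CYP71A13, an earlier step, fell by 3.43 ± 0.39 (adjusted p = 5.39e-07), and by 2.76 without jazD replicate 2.

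Immune receptor families did not move as a block. Of 36 cysteine-rich receptor kinases 14 were lower (38.9%) and 6 higher (16.7%) with TMM, against 19% and 16.9% of all tested genes. On the TPM scale 10 were lower and 7 higher. CRK4 rose, with 47.5, 43.5 and 49.4 CPM in jazDcdk8-1 and 11.9, 17 and 12.7 CPM in jazD (1.75 ± 0.11, adjusted p = 8.67e-11). Of 110 tested NLR genes, the intracellular receptors, 20 were lower and 17 higher with TMM, and 8 lower and 22 higher on the TPM scale, and 13 were lower without jazD replicate 2. The receptor-like proteins had 10 of 45 lower and 9 higher with TMM, and 5 lower and 11 higher on the TPM scale. Their TMM shares of 22.2% lower and 20% higher were also near those of all tested genes. RLP19 fell, with 29.5, 30.2 and 32.0 CPM in jazDcdk8-1 and 86.3, 85.1 and 82.7 CPM in jazD (-1.47 ± 0.05, adjusted p = 6.06e-15). Wall-associated kinases had 4 of 8 lower and none higher, with WAK1 at 27.7, 31.9 and 39.5 CPM in jazDcdk8-1 and 67.1, 114 and 64.0 CPM in jazD (-1.31 ± 0.17, adjusted p = 3.8e-06).

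Early stress genes that react to touch and wounding were lower as well. Of 10 tested genes 9 were lower and none higher, with a median of -1.59. TCH3, a calmodulin-like protein, had 40.9, 37.4 and 45 CPM in jazDcdk8-1 and 152, 210 and 137 CPM in jazD (-2.02 ± 0.12, adjusted p = 2.3e-11). ZAT10, a zinc-finger repressor of stress responses, had 3.78, 3.21 and 4.63 CPM in jazDcdk8-1 and 20.4, 20.3 and 15.1 CPM in jazD (-2.26 ± 0.18, adjusted p = 3.48e-09). The groups did not overlap in either gene, as the naming rule required, and jazD replicate 2 was the highest of its group for TCH3. Heat shock genes had 4 of 9 lower and 1 higher (2 without jazD replicate 2), the one being ROF2, which lies in the stretch of chromosome 5 described below.

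Glucosinolate pathways split by side chain. Indole glucosinolate genes had 14 of 18 lower and 1 higher, and aliphatic glucosinolate genes had 14 of 23 higher and 2 lower with a median of 0.41. MAM3, which elongates the methionine chain of aliphatic glucosinolates, had 33.7, 43.3 and 42.0 CPM in jazDcdk8-1 and 11.7, 11.8 and 14.2 CPM in jazD (1.67 ± 0.10, adjusted p = 4.36e-11). The isopropylmalate isomerase gene IPMI2 of the same elongation had 183, 184 and 177 CPM in jazDcdk8-1 and 99.0, 84.7 and 91.5 CPM in jazD (0.98 ± 0.05, adjusted p = 4.21e-12). TGG1, the myrosinase that cleaves glucosinolates and one of the most abundant transcripts here, had 12470, 13230 and 12350 CPM in jazDcdk8-1 and 7620, 7056 and 7310 CPM in jazD (0.79 ± 0.05, adjusted p = 8.38e-11). Its groups were apart, and both exceeded the 4909 ± 250 CPM of Col-0 (SD, n = 3).

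In flavonoid synthesis 10 of 20 genes were lower and 3 higher with TMM, and 6 lower and 4 higher on the TPM scale. FLS1, which makes flavonols, rose, with 37.9, 36.1 and 36.1 CPM in jazDcdk8-1 and 20.0, 17.8 and 17.2 CPM in jazD (1.00 ± 0.07, adjusted p = 1.1e-10). LDOX, which diverts the same precursors toward anthocyanins, had 28.1, 23.8 and 27.4 CPM in jazDcdk8-1 and 51.1, 49.6 and 49.6 CPM in jazD (-0.92 ± 0.07, adjusted p = 2.09e-09). MYBL2, a repressor of anthocyanin synthesis, fell too (-0.88 ± 0.06, adjusted p = 2.25e-10). The pathway thus held members moving both ways.

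Mineral nutrition changed with opposite signs within single pathways. All 16 tested nitrogen genes were called, 6 higher and 10 lower. NIA1 and NIR1, which reduce nitrate and then nitrite in leaves, rose: NIA1 had 118, 112 and 115 CPM in jazDcdk8-1 and 53.3, 61.3 and 57.0 CPM in jazD (1.00 ± 0.07, adjusted p = 8.62e-10), and NIR1 had 267, 268 and 243 CPM in jazDcdk8-1 and 152, 155 and 154 CPM in jazD (0.75 ± 0.04, adjusted p = 1.38e-11). GDH1, a glutamate dehydrogenase linked to carbon shortage, fell by 0.65 ± 0.05 (adjusted p = 1.94e-09). The stress-linked nitrate transporter NRT1.8 had 0.334, 0.478 and 1.06 CPM in jazDcdk8-1 and 12.4, 22.7 and 11.7 CPM in jazD (-4.59 ± 0.30, adjusted p = 8.89e-11, and -5.23 without jazDcdk8-1 replicate 3). AMT1;2, an ammonium transporter, rose (1.97 ± 0.11, adjusted p = 9.34e-12).

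Sulfur assimilation had 9 of 16 genes lower and 2 higher (1 without jazD replicate 2 or 3 or jazDcdk8-1 replicate 2). SDI1 and GGCT2;1, below the 5 CPM that named genes had to reach, fell more than any other member. The most changed member above that limit was APR3, which reduces activated sulfate, at 35.3, 32.4 and 37.3 CPM in jazDcdk8-1 and 67.2, 75.0 and 65.9 CPM in jazD (-0.99 ± 0.07, adjusted p = 2.33e-10). In the iron list 5 of 14 were lower and 2 higher with TMM (1 without jazD replicate 2 or jazDcdk8-1 replicate 2), and 4 each way on the TPM scale. The ferritin gene FER1, which stores iron in plastids, had 56.2, 64.7 and 54.3 CPM in jazDcdk8-1 and 203, 210 and 190 CPM in jazD (-1.78 ± 0.10, adjusted p = 8.11e-12). The libraries of jazDcdk8-1 and jazD did not overlap for APR3 and FER1, as the naming rule required.

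Carbon status genes that mark sugar shortage were mostly lower. Of 16 genes induced by sugar starvation or darkness, 10 were lower, 2 higher (DIN3 and DIN9) and 4 not called. There were 0 or 1 higher without any one library but jazDcdk8-1 replicate 3. DIN11 had 1.5, 0.526 and 0.787 CPM in jazDcdk8-1 and 115, 151 and 117 CPM in jazD (-7.12 ± 0.19, adjusted p = 3.14e-17), and DIN6, which encodes an asparagine synthetase, had 34.8, 28.8 and 36.2 CPM in jazDcdk8-1 and 64.3, 67.8 and 64.8 CPM in jazD (-0.98 ± 0.09, adjusted p = 4.45e-08). Starch genes leaned higher, with 8 of 18 higher and 2 lower. GBSS1, the amylose synthase, had 32.7, 38.9 and 36.8 CPM in jazDcdk8-1 and 19.2, 16.6 and 18.1 CPM in jazD (1.01 ± 0.09, adjusted p = 6.72e-09), while the β-amylase BAM5 had 3.23, 2.77 and 3.10 CPM in jazDcdk8-1 and 24.3, 23.1 and 20.7 CPM in jazD (-2.90 ± 0.12, adjusted p = 4.51e-14). SWEET13, a sucrose exporter of the leaf, rose by 1.37 ± 0.12 (adjusted p = 5.88e-09).

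Photosynthesis showed small changes whose balance followed the scaling. Of 37 photosystem, antenna and Rubisco genes, 14 were lower and 5 higher with TMM, 11 each way with total counts, and 5 lower and 14 higher on the TPM scale, and no gene reached 2-fold. CAB1, an antenna protein gene, had 22620, 21720 and 20810 CPM in jazDcdk8-1 and 26270, 24500 and 25990 CPM in jazD (-0.24 ± 0.06, adjusted p = 0.00279), and was not called on the TPM scale. RCA, the activator of Rubisco, had 6982, 6808 and 6496 CPM in jazDcdk8-1 and 5489, 5068 and 5403 CPM in jazD (0.35 ± 0.05, adjusted p = 5.93e-06). The groups were apart in both genes, in opposite directions. Photorespiration leaned higher, with 7 of 12 higher and 2 lower, as in GLDP1, a subunit of glycine decarboxylase (0.48 ± 0.04, adjusted p = 1.43e-08). Ribosomal protein genes, matched by annotation and not limited to cytosolic ones, turned with the scaling. Of 200, 60 were lower and 10 higher with TMM, and 29 lower and 20 higher with total counts. On the TPM scale 10 were lower and 51 higher. Without jazDcdk8-1 replicate 3, 33 were lower and 6 higher, and without jazD replicate 2, 6 were higher. No direction is given for that family.

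Summed over all genes called with TMM scaling, losses came to -101100 CPM and gains to 47390 CPM. The 10 largest losses made up 21.25% of the losses, and the 10 largest gains 26.33% of the gains. The largest losses included the antenna genes CAB1, CAB2 and LHB1B1 beside the PDF1 defensins, BGLU18 and LOX2. These sums were taken on TMM-scaled CPM alone. On the TPM scale CAB1 was not called (limma, adjusted p = 0.165 with a pseudocount of 1), and the 37 photosystem, antenna and Rubisco genes together were at 230300 ± 4451 TPM in jazDcdk8-1 and 219800 ± 6783 TPM in jazD (SD, n = 3 each). PRP4, a proline-rich wall protein, was also there, with 1781, 1708 and 1768 CPM in jazDcdk8-1 and 3629, 3067 and 3404 CPM in jazD (-0.94 ± 0.06, adjusted p = 1.23e-10). Among the gains were TGG1, RCA and THI1, which makes the thiazole part of thiamin (0.59 ± 0.05, adjusted p = 3.75e-09). AT1G73600, annotated as a methyltransferase, had 1025, 1054 and 930 CPM in jazDcdk8-1 and 408, 365 and 388 CPM in jazD (1.37 ± 0.05, adjusted p = 1.89e-14).

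The clock list was even with TMM, at 7 of 17 higher and 7 lower, and had 10 higher and 7 lower on the TPM scale. The higher genes were CCA1, LHY, PRR9, RVE8, RVE1, LNK1 and LNK2, the lower ones ELF4, FKF1, LUX, PRR5, TOC1, GI and CHE, and PRR7, ELF3 and ZTL were not called. ELF4, a subunit of the evening complex, had 2.73, 3.3 and 4.35 CPM in jazDcdk8-1 and 12.4, 13.7 and 12.4 CPM in jazD (-1.88 ± 0.16, adjusted p = 4.57e-09), and its partner LUX fell by 0.99 ± 0.07 (adjusted p = 7.56e-10). FKF1, a blue-light receptor of the photoperiod pathway, fell by 1.44 ± 0.13 (adjusted p = 1.89e-08), and the pseudo-response regulator PRR5 by 0.98 ± 0.12 (adjusted p = 1.26e-06). The hour of harvest for each library was not used here. Flowering-time genes had 7 of 15 higher and 1 lower (2 without jazD replicate 2). The lower one was TEM1, a repressor of FT, at 17.9, 15.8 and 17.1 CPM in jazDcdk8-1 and 35.4, 39.5 and 34.8 CPM in jazD (-1.11 ± 0.10, adjusted p = 1.81e-08), and the floral repressor SMZ was among the higher (1.00 ± 0.15, adjusted p = 1.46e-05).

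Hormone lists other than jasmonate were mixed, set beside 19% lower and 16.9% higher over all tested genes. Ethylene genes had 11 of 16 lower and 1 higher, with ACS6, a synthase of the ethylene precursor, at 9.57, 8.71 and 7.60 CPM in jazDcdk8-1 and 18.1, 26.1 and 21.4 CPM in jazD (-1.35 ± 0.13, adjusted p = 4.03e-08). Abscisic acid genes had 8 of 17 lower and 2 higher with TMM (1 without any one library but jazDcdk8-1 replicate 2), and 6 lower and 4 higher on the TPM scale. The dehydrin gene RAB18 was among the lower (-1.37 ± 0.14, adjusted p = 1.73e-07). Brassinosteroid genes had 6 of 14 higher and 1 lower (2 without jazD replicate 2 or jazDcdk8-1 replicate 1). Auxin genes were divided, 9 of 25 higher and 7 lower, with the auxin-conjugating GH3.3 at 3.17, 3.97 and 4.96 CPM in jazDcdk8-1 and 13.3, 14.8 and 13.4 CPM in jazD (-1.77 ± 0.16, adjusted p = 1.16e-08) and the auxin-synthesis gene YUC2 higher (1.08 ± 0.14, adjusted p = 2.98e-06). Gibberellin genes were 7 of 18 lower and 4 higher with TMM, and 4 lower and 6 higher on the TPM scale, and RGL3, a DELLA repressor, fell by 1.63 ± 0.13 (adjusted p = 1.62e-09).

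Growth genes changed modestly. Cell cycle genes had 9 of 24 higher and 2 lower, none of them by 2-fold, and 4 or 5 were higher without jazD replicate 2 or 3 or jazDcdk8-1 replicate 2 or 3. Among wall-loosening genes 7 of 20 were higher and 5 lower (3 or 4 higher without jazD replicate 1 or 3 or jazDcdk8-1 replicate 1 or 3), led by XTH24, at 197, 196 and 207 CPM in jazDcdk8-1 and 106, 105 and 103 CPM in jazD (0.94 ± 0.06, adjusted p = 5.06e-11). In cuticle synthesis CER3, an enzyme of wax alkane formation, had 96.6, 102 and 96.1 CPM in jazDcdk8-1 and 50.4, 50.3 and 49.2 CPM in jazD (0.98 ± 0.05, adjusted p = 1.7e-12), and the cutin gene GPAT4 fell (-0.80 ± 0.05, adjusted p = 1.02e-10). For XTH24, CER3 and GPAT4 the groups were apart, as the naming rule required.

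Several genes with large gains outside the stretch of chromosome 5 described next also had higher cdk8-1 than Col-0 levels. AT5G35935, annotated as a transposable element gene, had 6.73, 7.94 and 6.48 CPM in jazDcdk8-1 and 0.436, 0.393 and 0.711 CPM in jazD (3.79 ± 0.21, adjusted p = 5.52e-12), with 18.65 ± 0.34 CPM in cdk8-1 and 5.87 ± 1.05 CPM in Col-0 (SD, n = 3 each). AT3G55230 had 5.95, 7.51 and 6.34 CPM in jazDcdk8-1 and 0.871, 0.393 and 0.415 CPM in jazD (3.55 ± 0.22, adjusted p = 5.08e-11), with 7.51 ± 0.85 CPM in cdk8-1 and 1.24 ± 0.15 CPM in Col-0. In both genes the groups were well apart. AT1G11070 had 28.9, 29.8 and 31.1 CPM in jazDcdk8-1 and 2.56, 3.14 and 3.26 CPM in jazD (3.32 ± 0.12, adjusted p = 2.74e-15), with 35.9 ± 3.3 CPM in cdk8-1 and 6.3 ± 1.1 CPM in Col-0 (SD, n = 3 each). AT1G62290, annotated as a saposin-like aspartyl protease, had 26.0, 28.1 and 26.5 CPM in jazDcdk8-1 and 4.79, 4.42 and 3.97 CPM in jazD (2.61 ± 0.09, adjusted p = 5.6e-15), with 29.7 ± 1.8 CPM in cdk8-1 and 6.88 ± 0.83 CPM in Col-0. In both of these the mutants in CDK8 stood above the genotypes with an intact CDK8. CPuORF21, at 38.6, 30.1 and 13.4 CPM in jazDcdk8-1 and 0.599, 0.590 and 0.533 CPM in jazD, overlaps its host gene, so its count is uncertain.

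A stretch of chromosome 5 from 17 to 24 Mb, which lies 8.46 to 1.46 Mb before CDK8, held many of the strongest gains. Its bounds were set with results of these data known, so setting it against other genes describes it and is no test. The whole stretch held 1278 of the genes tested (6.71%), of which 343 were higher and 237 lower (45.4% called, against 35.1% elsewhere). It was not uniform, as between 21 and 22 Mb no gene was at least 4-fold higher and 31.8% were called. Genes at least 4-fold higher made up 2.27% of the stretch (29 genes) and 0.186% of all others (33 genes), and genes at least 4-fold lower made up 1.8% of it (23 genes) and 1.37% of all others (243 genes). The change that comes from the cdk8-1 mutation and a change that comes from a stretch of chromosome carried with it, or with a JAZ mutation, cannot be told apart here. With the stretch removed from the fit, 229 genes were at least 2-fold higher and 788 at least 2-fold lower.

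Many of its strongest genes were near 0 in jazD alone. AT5G50565 had 7.68, 7.13 and 9.12 CPM in jazDcdk8-1 and no counts in any jazD library, which makes it at least 148-fold higher against a floor of 3 counts over the group. AT5G49440 had 106, 92.4 and 92.3 CPM in jazDcdk8-1 and 0, 0 and 0.355 CPM in jazD, while cdk8-1 and Col-0 averaged 122 and 82.0 CPM. AT5G45490 had 55.5, 55.1 and 58.4 CPM in jazDcdk8-1 and 0, 0 and 0.296 CPM in jazD, with 42.6 and 66.1 CPM on average in cdk8-1 and Col-0. For both, jazD was the genotype apart from the other 3. AT5G47260 was the reverse, with 1 count in all jazDcdk8-1 libraries together and 4.74, 5.40 and 5.92 CPM in jazD, a ratio of 323 in favor of jazD with a 95% counting interval from 57.5 to 1.28e+04. FUM2, the cytosolic fumarase and a gene named after its values were seen, had 252, 259 and 261 CPM in jazDcdk8-1 and 33.9, 32.4 and 35.4 CPM in jazD (2.92 ± 0.05, adjusted p = 2.99e-20), while cdk8-1 had 132 ± 1.3 CPM and Col-0 had 239 ± 9 CPM (SD, n = 3 each).

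**Figure D4:**
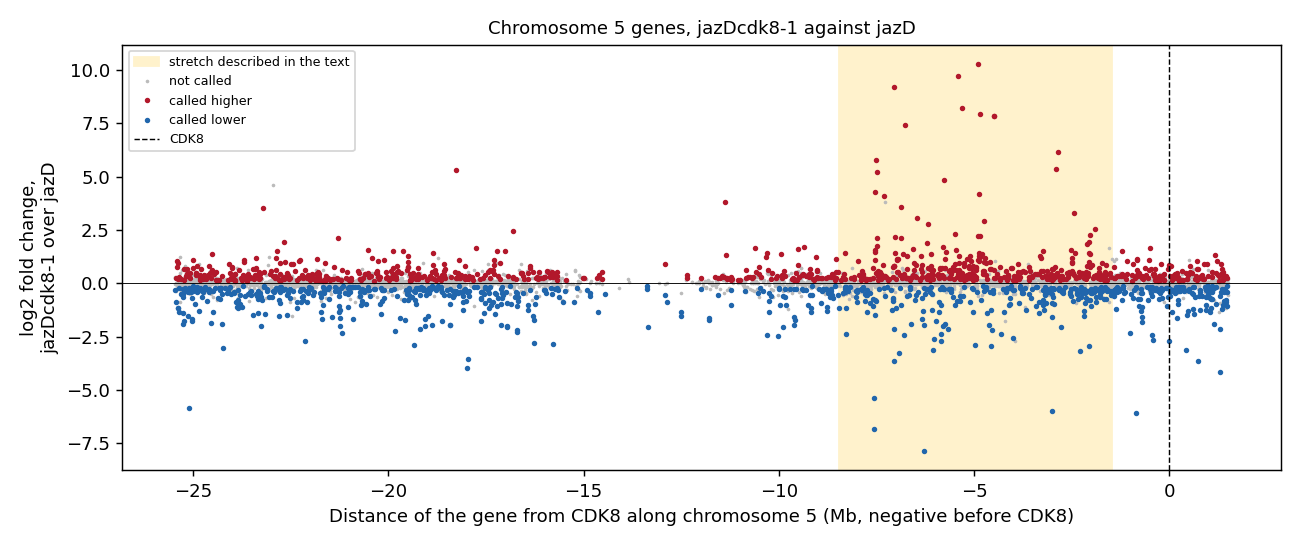
Log2 fold change of jazDcdk8-1 over jazD for the tested genes of chromosome 5 against their distance from CDK8 in Mb, with the stretch that ends 1.46 Mb before CDK8 shaded. Points beyond 4-fold in the higher direction gather in the shaded part, where 29 of the 62 such genes of the genome lie.

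A smaller cluster, noted after its values were seen, lay on chromosome 2. Between 6 and 7 Mb, 44.9% of 78 tested genes were called and 7 were at least 4-fold lower, among them PR1 and RLP18. CML30, a calmodulin-like gene chosen after its values were seen, had no counts in the jazDcdk8-1 libraries and 3.65, 4.18 and 3.73 CPM in jazD. It also had no counts in cdk8-1 and 0.778, 0.301 and 1.35 CPM in Col-0, so both genotypes with the cdk8-1 allele lacked it. As on chromosome 5, an effect of CDK8 and an effect of a carried stretch cannot be told apart for these genes.

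Loss of CDK8 was next set against the same mutation in plants with intact JAZ genes, that is cdk8-1 against Col-0, which shares no library with the comparison above. There 2229 genes were higher and 2624 lower (25.5% called), and 189 (0.992%) and 471 (2.47%) of these by at least 2-fold. Genes higher in both comparisons numbered 1118, which is 34.8% of those higher in jazDcdk8-1 and 50.2% of those higher in cdk8-1, and genes lower in both numbered 1505, or 41.7% and 57.4%. Of the at least 2-fold lower genes 300 were shared, 35.3% of the 850 in jazDcdk8-1 and 63.7% of the 471 in cdk8-1. Over the 19059 genes, which are not independent, the log2 fold changes of both comparisons had a Pearson correlation of 0.524 and a Spearman correlation of 0.446.

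The difference between the effects was tested as an interaction, and 3154 genes were called (16.5%), 1555 positive (8.16%) and 1599 negative (8.39%). Among the 850 genes with a decrease of at least 2-fold in jazDcdk8-1, 324 (38.1%) had a negative interaction, meaning a more negative change in the JAZ-deficient background. Such genes need not fall in cdk8-1: SAG21 changed by -2.10 in jazDcdk8-1 and 0.86 in cdk8-1. The 850 were picked on a change that enters the interaction, so the share of 38.1% is partly built in. A further 309 (36.4%) were also lower in cdk8-1 with no interaction called. CYP81F2 and PAD3 were among these 309: PAD3 had 0.613 ± 0.239 CPM in cdk8-1 and 4.0 ± 0.29 CPM in Col-0.

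The largest interactions in the ERF branch, and that of ACT in the agmatine-amide pathway, rested on a single cdk8-1 library. PDF1.3 had an interaction of -8.34 ± 1.04 (adjusted p = 7.78e-06), and -3.22 (adjusted p = 0.493) without cdk8-1 replicate 3. ACT had -6.52 ± 1.05 (adjusted p = 0.000156), and 0.32 (adjusted p = 0.804) without that library. Both genes were scarce in cdk8-1 and Col-0, where they averaged 0.54 to 3.62 CPM. PDF1.2B, PDF1.2C and AT5G47260 lost their calls in the same way. The calls of the other genes named for their interaction held when any single library was left out. SAG21, a senescence-associated LEA protein, had 13.1, 11.9 and 15.9 CPM in jazDcdk8-1 and 51.1, 80.9 and 43.1 CPM in jazD, whereas it had 14.3 ± 1.1 CPM in cdk8-1 and 7.89 ± 0.65 CPM in Col-0 (interaction -2.96 ± 0.26, adjusted p = 5.91e-08).

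A set of 321 genes went opposite ways in the backgrounds, 169 higher in jazDcdk8-1 but lower in cdk8-1 and 152 lower in jazDcdk8-1 but higher in cdk8-1. The interaction was called for all 321, but it is the difference of these opposite changes, so its call adds no support. ER body and lectin genes were among the 152. PBP1 had 239, 232 and 217 CPM in jazDcdk8-1 and 592, 632 and 608 CPM in jazD, but 65.9 CPM in cdk8-1 and 44.2 CPM in Col-0 on average (interaction -1.99 ± 0.08, adjusted p = 2.13e-13). BGLU23, the ER body glucosidase also known as PYK10, fell by 0.52 ± 0.07 in jazDcdk8-1 (adjusted p = 3.2e-06) but averaged 113 CPM in cdk8-1 against 42.9 CPM in Col-0 (interaction -1.91 ± 0.10, adjusted p = 2.49e-11). APR3 did likewise, at 46.5 CPM in cdk8-1 and 23.5 CPM in Col-0 (interaction -1.97 ± 0.10, adjusted p = 9.93e-12).

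**Figure D5:**
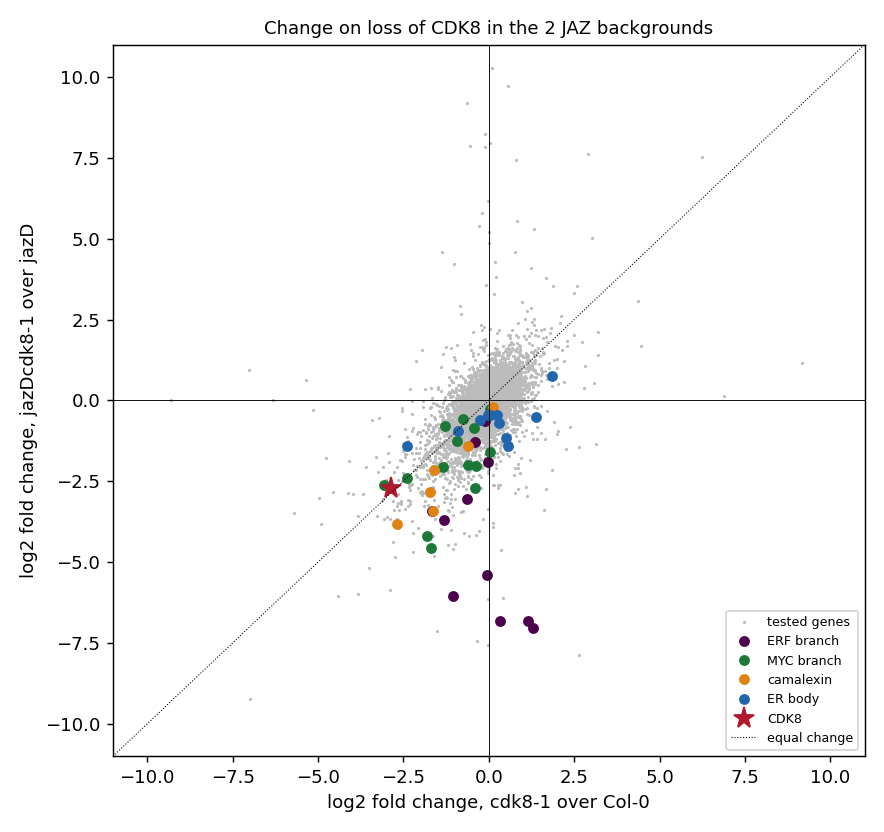
Log2 fold change on loss of CDK8 in the JAZ-deficient background (vertical axis, jazDcdk8-1 over jazD) against that in the JAZ-intact background (horizontal axis, cdk8-1 over Col-0) for 19059 genes, with 4 gene lists in color and a dotted line of equal change. ERF branch genes lie far below the line, camalexin genes are low on both axes, and several ER body genes are above 0 on the horizontal axis and below 0 on the vertical one.

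Promoter elements were counted over the same 4-fold groups, in windows from 250 bases before to 50 bases after each start, on both strands. The GCC-box was found in 6.02% of the 266 promoters of genes at least 4-fold lower and in 1.64% of 61 promoters of genes at least 4-fold higher, against 2.69% of all 18983 promoters. Of the 11 ERF branch genes 4 held it (36.4%), and none of the 14 MYC branch genes did. The G-box was in 9.77% of the lower, 6.56% of the higher and 8.79% of all promoters, and the W-box in 39.1%, 37.7% and 32.3%. The evening element (AAAATATCT) and the core of the cold-response element (CCGAC) were in 4.51% and 13.2% of the lower, 3.28% and 11.5% of the higher and 3.11% and 16.3% of all promoters. These shares are descriptions of letters in the windows and were not tested, and no binding data were used.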

How the data were processed

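Whole-rosette mRNA of 4 genotypes was sequenced, 3 libraries each. The authors deposited RSEM expected counts and TPM per gene, made with RSEM 1.2.25 on TAIR10, per the submitters' processing notes; the aligner settings are not given in the sources used here. Of the count values 3.4226% were not whole, and all were rounded to whole numbers. Genes of all 12 libraries that passed filterByExpr (19059 of 33323) were scaled by TMM and fitted with edgeR 4.0.16 (quasi-likelihood, genotype term, Benjamini-Hochberg adjustment over all genes, R 4.3.3). The contrasts were jazDcdk8-1 minus jazD, cdk8-1 minus Col-0 and their difference. Standard errors were obtained from the log2 fold change and its F statistic. DESeq2 1.42.0 and limma 3.58.1 on log2(TPM + 1) or log2(TPM + 0.1) were alternatives, as were other scalings, filters, a replicate block and leaving out libraries. CPM are counts scaled to 1000000 per TMM-adjusted library. The scripts were tested on simulated data.

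The labels call the libraries biological replicates, and p-values measure the spread between these pools. The number of counts limits precision, and intervals and floors cover counting error only. Gene names, coordinates and promoter bases come from RefSeq TAIR10.1 (32835 of 33323 identifiers matched). The genes mutated in jazD are given from knowledge of the line. Genes were named by rule: CDK8 and its module; up to 4 called members of each of 50 lists and 27 families with the largest change, at least 5 CPM in a genotype and no overlap of libraries; the 12 highest and 12 lowest genes outside the chromosome 5 stretch and 5 each inside it; the 10 largest gains and losses in CPM; and the 5 most positive and negative interactions. The members and lists were chosen with earlier results of these data known.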

Additional observations from a re-analysis of the deposited data

Results flagged for a closer look

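All values here are interactions, the log2 fold change of jazDcdk8-1 over jazD minus that of cdk8-1 over Col-0, and each was noted because the effect of CDK8 loss differed between the JAZ-deficient and JAZ-intact backgrounds. In all, 3154 genes were called.

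The ERF branch genes PDF1.3 (-8.34), PDF1.2C (-7.98) and PDF1.2B (-7.14) and the agmatine-amide gene ACT (-6.52) had strongly negative values. None was called without cdk8-1 replicate 3, where the values were -3.22, -4.72, -3.16 and 0.32 (adjusted p = 0.493, 0.0576, 0.384 and 0.804, edgeR). In that library the ERF branch summed to 247 TPM, against 50.3 and 47.9 TPM in the other cdk8-1 libraries.

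On chromosome 5 between 17 and 24 Mb, AT5G50565 (10.19), AT5G45490 (9.83), AT5G49440 (9.16), AT5G49640 (8.34), AT5G51630 (7.95) and FUM2 (3.78) were positive, and AT5G47260 (-10.50) was negative. AT5G47260 was not called without cdk8-1 replicate 3 (-7.87, adjusted p = 1). Fitted values of genes with almost no counts in a genotype depend on the prior count and are no measure of size.

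SAG21 (-2.96), JAL33 (-2.30), PBP1 (-1.99), APR3 (-1.97), BGLU23 (-1.91), NAI2 (-1.65) and LDOX (-1.57) fell in jazDcdk8-1 and were higher in cdk8-1 than in Col-0. Their calls held without any single library.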

How the results depend on the processing

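Counts of higher and of lower genes moved most with limma: on log2(TPM + 1) 6475 genes were higher and 2075 lower, 158 and 393 of them at least 2-fold, and on log2(TPM + 0.1) 6499 were higher and 2048 lower. Leaving out single libraries gave 2528 to 2665 higher, 3082 to 3410 lower, 274 to 303 at least 2-fold higher, 782 to 901 at least 2-fold lower and 2476 to 3036 interactions, against 3154 over all libraries. DESeq2 gave 2598 higher, 3147 lower and 2533 interactions, and limma 2863 and 2754 interactions. Signs turned for CYCC1;1 without jazD replicate 2 (-0.0363, with single libraries left out -0.0363 to 0.150), for CYCC1;2 with total counts (0.0279) and TPM (0.11 with either pseudocount), for NINJA with TPM (0.0146 with a pseudocount of 1, 0.0150 with 0.1) and for the ACT interaction without cdk8-1 replicate 3 (0.32, with single libraries left out -7.22 to 0.32); the cause was not tested. Without some single library MED12, MED13, NINJA, ATTI2, BEE1, XTH22, HIK, SDF2, SWEET16 and SWEET1 lost their calls.

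Replicate numbers did not pair the samples: deviations of same-numbered libraries correlated at 0.02, -0.05 and 0.00. With the replicate block 3118 genes were higher, 3522 lower, 296 and 839 at least 2-fold, and 3021 interactions were called. Depth limits genes below about 1 CPM.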
